A study of Mus musculus with 9 samples.

Results

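Genes of the Fanconi anaemia pathway, homologous recombination and DNA mismatch repair were followed in RAW264.7 cells, a mouse macrophage-like line. The set holds 35 genes chosen by symbol: 7 of the Fanconi core complex, the 2 genes of its ubiquitinated clamp, 5 of the BRCA group, 4 recombination mediators (Rad51c, Rad51d, Xrcc2 and Xrcc3), 2 RAD54 translocases, 5 of the BLM complex and its structure-cutting nucleases, 4 of mismatch repair with its exonuclease, 3 of break sensing and resection, and 3 damage kinases. All 35 symbols were found among the 53700 genes of the authors' deposited table, and the FPKM of their 305 transcripts were summed by gene. FPKM is fragments scaled to transcript length and to the size of the library, so it is a relative level.

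RNA was sequenced in 9 samples, 3 each titled CON, LPS and ProNa. Every sample carries the same treatment text: cells near confluence were given 1 mM ProNa or none for 24 h, and then 100 ng/mL LPS for 12 h. LPS, lipopolysaccharide of the bacterial outer membrane, is sensed by macrophages through a Toll-like receptor. The labels do not expand the name ProNa or say in so many words that CON received neither agent. The 3 groups share the cell line and the medium, and no label says whether the 3 samples under one title were cultured separately. All levels below are the authors' group means, without a spread.

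A DNA crosslink that stalls a replication fork is recognised by the Fanconi core complex, which attaches ubiquitin to the FANCD2 and FANCI proteins. Nucleases then open the lesion, and the break that results is repaired by homologous recombination, in which an intact copy of the sequence serves as template and BRCA2 acts at single-stranded DNA. Mismatch repair corrects bases misplaced during copying. Some genes of these pathways are known to be transcribed more in dividing cells, and others are also transcribed in cells that do not divide.

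The labelled cell type was checked against defining markers because the extraction text speaks of colonic segments. All 8 macrophage markers reached 1 FPKM in a group, whereas 0 of 9 markers of colon epithelium did, with Epcam, Cdx1, Cdx2, Krt20 and Car1 listed at 0 in every group. The summed macrophage markers went from 11852 FPKM in CON to 1769 in LPS and 2606 in ProNa, most of it Lyz2 (9719, 661 and 1586 FPKM). In LPS against CON 5 of the 8 macrophage markers fell and Cd68, Adgre1 and Fcgr1 rose in the authors' deposited table, with a median of -0.55, while on the FPKM scale (fold changes shifted to the level of the FPKM ratios) 6 fell and 1 rose. The colon markers summed to 0.160, 0.157 and 0.0367 FPKM in the same order. Among fibroblast and smooth muscle markers 1 of 7 reached 1 FPKM (Acta2, 0.947, 13.7 and 17.6 FPKM), and among lymphocyte markers 1 of 6 did (Ighm, 222, 1.26 and 2.32 FPKM), with Cd3e at 0. Fewer cells of a type and less RNA per cell cannot be told apart in bulk RNA.

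The comparison of LPS with CON asked how the repair genes stood after the LPS treatment. Most were lower: the 35 genes summed to 304 FPKM in CON and 145 in LPS, and their median level was 8.92 against 2.17 FPKM. At an adjusted p under 0.05 in the authors' deposited table, 26 of the 35 fell, 4 rose and 5 did not pass. Over all 17795 genes with an adjusted p in the authors' deposited table, 27.2% fell and 28.1% rose, 55.4% in either direction. The median log2 fold change of the 35 was -1.55, against -0.02 over all those genes, in the authors' deposited table. At least a 2-fold fall was found for 23 of the 35 genes in the authors' deposited table, against 13.9% of all genes (27.9% when rises are counted too), and 9 fell at least 8-fold, against 3.61% of all genes. Fancd2, Exo1 and Fanci stood lowest in the authors' deposited table, and the 4 that rose were Fancc, Msh3, Mus81 and Nbn.

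**Figure D1:**
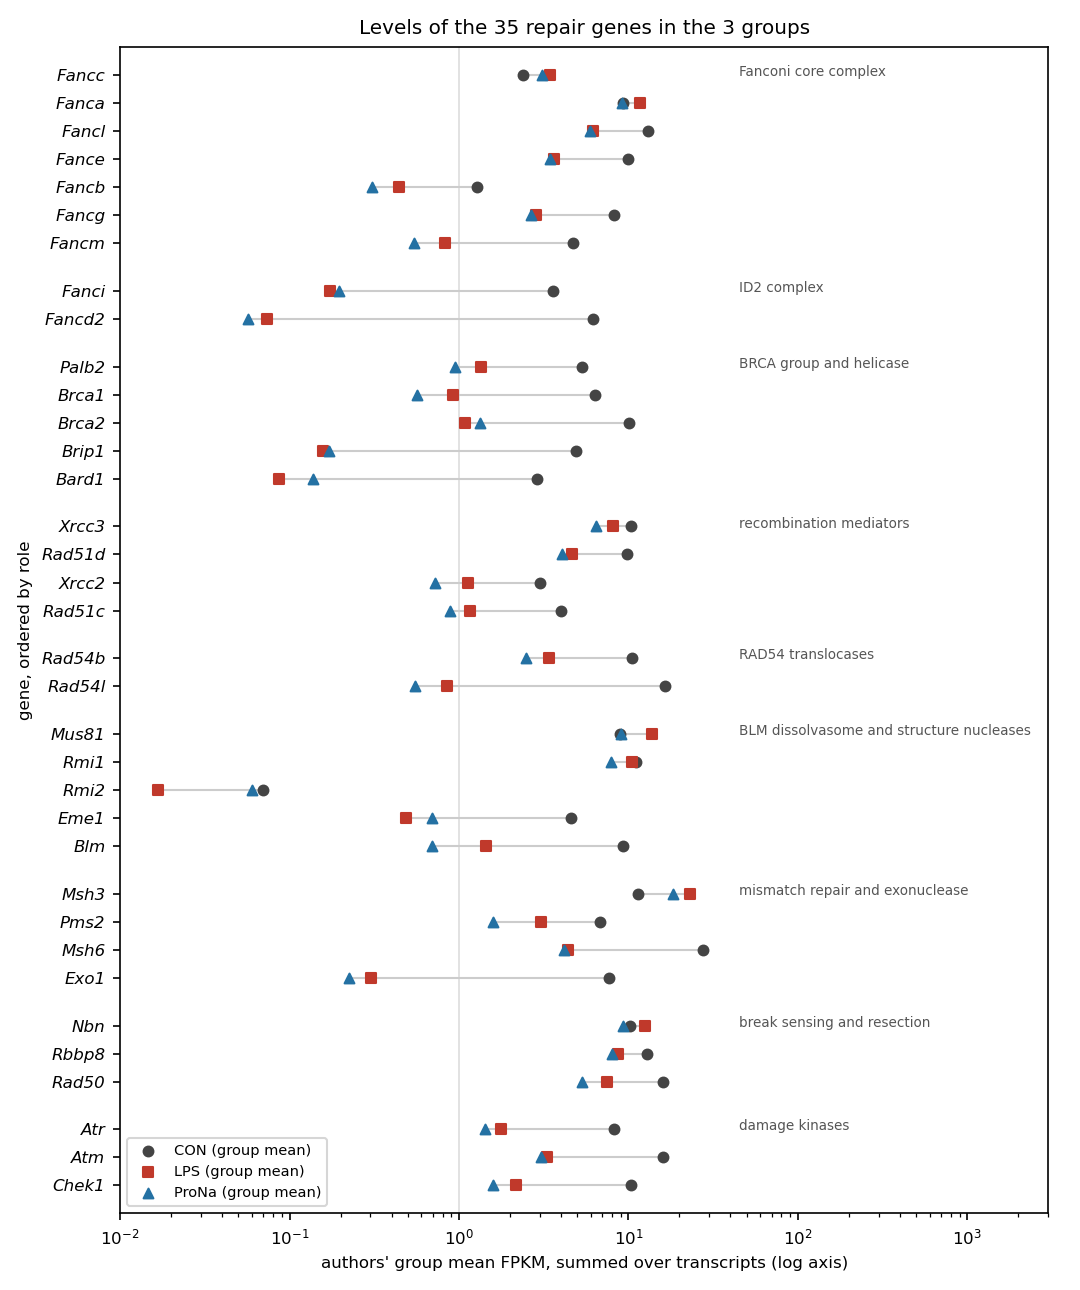
The authors' group mean FPKM of each of the 35 repair genes on a log axis, with a circle for CON, a square for LPS and a triangle for ProNa, ordered by role. In CON 34 genes were at 1 FPKM or more, against 24 in LPS and 20 in ProNa, and the LPS and ProNa points lie close together for most genes.

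The genes of the ubiquitinated clamp showed the widest fall of any role. Fancd2 (ENSMUSG00000034023), the protein that the core complex ubiquitinates, was at 6.20 FPKM in CON, against 0.0734 in LPS and 0.0567 in ProNa. Its log2 fold change in LPS against CON was -6.89 in the authors' deposited table (adjusted p = 1.7e-50). Its partner Fanci was at 3.59, 0.173 and 0.197 FPKM. Fanci fell by 5.26 on the log2 scale in the authors' deposited table (adjusted p = 8.3e-46). Both genes were thus plainly present in CON and near 0 in the other groups.

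The core complex, by contrast, was mixed. Of its 7 genes, 5 fell, Fancc rose and Fanca did not pass in the authors' deposited table. Fancm, the translocase that brings the complex to DNA, was at 4.72, 0.827 and 0.540 FPKM in CON, LPS and ProNa, and its log2 fold change was -2.65 in the authors' deposited table (adjusted p = 1.2e-47). Fancl, the ubiquitin ligase of the complex, kept more of its level, at 13.1, 6.21 and 5.90 FPKM, and fell by 0.77 on the log2 scale in the authors' deposited table (adjusted p = 3.7e-06). Fancg and Fance, structural subunits, stood between these, with log2 fold changes of -1.56 and -1.19 in the authors' deposited table. Fancg stood at 8.20, 2.84 and 2.67 FPKM and Fance at 9.96, 3.62 and 3.43. Fancb was low in every group, at 1.27, 0.440 and 0.307 FPKM, with a log2 fold change of -1.25 in the authors' deposited table (adjusted p = 8.9e-04).

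The exceptions in the complex were Fanca and Fancc, both structural subunits. Fancc stood at 2.38, 3.43 and 3.09 FPKM and rose by a log2 fold change of 0.80 in the authors' deposited table (adjusted p = 5.0e-04). Fanca stood at 9.26, 11.8 and 9.11 FPKM, and its log2 fold change was 0.05 in the authors' deposited table (adjusted p = 0.743). Its long assembled transcript of 4865 bases went from 4.89 to 3.92 FPKM, while a 483-base one went from 0.773 to 2.82. Fanca and Fancc overlap genes on the opposite strand, and reads from such pairs cannot be told apart because no source used here says how strand was handled. The same holds for Fanci with Polg, Fancl with Vrk2, Rad54l with Lrrc41, Rmi1 with Hnrnpk and Mus81 with Efemp2.

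All 5 genes of the BRCA group fell at least 3-fold in the authors' deposited table. Bard1, the partner of BRCA1 in a ubiquitin ligase, was at 2.88 FPKM in CON, against 0.0867 in LPS and 0.137 in ProNa, a log2 fold change of -4.77 for LPS against CON in the authors' deposited table (adjusted p = 1.0e-46). Brip1, a helicase that binds BRCA1, went from 4.90 to 0.157 and 0.170 FPKM, and Brca2, a mediator of recombination, from 10.1 to 1.09 and 1.33. Their log2 fold changes were -4.63 and -4.12 in the authors' deposited table. Brca1 stood at 6.37, 0.917 and 0.567 FPKM, with a log2 fold change of -2.64 in the authors' deposited table. Palb2, which joins BRCA1 to BRCA2, had the smallest fall of the group, from 5.34 to 1.35 and 0.950 FPKM, a log2 fold change of -1.81 in the authors' deposited table (adjusted p = 3.6e-14). For Brca2 the full-length transcript of 10517 bases went from 1.56 to 0.0600 FPKM, and 60.4% of what was left in LPS came from a 688-base transcript.

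The start sites of several of these genes lie close to that of another gene transcribed the other way, and the stretches upstream of them are shown because they carry the letters searched for or lie between such a pair. The sequences are from RefSeq on GRCm38.p6, read 5′ to 3′ on the strand of the named gene, with matches to TTTCCCGC or TTTGGCGC (E2F) or to CCAAT (NF-Y) in capitals, on either strand. Brca1, chr11:101551956-101552106, minus strand, lies between the starts of Brca1 and Nbr1. Palb2, chr7:122132986-122133040, minus strand, lies between the starts of Palb2 and Dctn5 and has no capitals. Bard1, chr1:71103148-71103217, minus strand, and Brca2, chr5:150522441-150522540, plus strand, hold an E2F match. Brip1, chr11:86201204-86201303, minus strand, holds 3 NF-Y matches, and Xrcc3, chr12:111813890-111813989, minus strand, a gene that did not pass the test, is shown beside it.
Brca1: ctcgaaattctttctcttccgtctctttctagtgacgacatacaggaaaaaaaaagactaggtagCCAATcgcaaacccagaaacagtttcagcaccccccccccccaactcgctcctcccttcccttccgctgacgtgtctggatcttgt
Palb2: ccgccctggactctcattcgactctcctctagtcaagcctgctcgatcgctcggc
Bard1: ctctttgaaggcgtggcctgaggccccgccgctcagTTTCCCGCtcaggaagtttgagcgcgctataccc
Brca2: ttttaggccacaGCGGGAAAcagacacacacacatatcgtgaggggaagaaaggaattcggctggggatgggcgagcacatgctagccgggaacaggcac
Brip1: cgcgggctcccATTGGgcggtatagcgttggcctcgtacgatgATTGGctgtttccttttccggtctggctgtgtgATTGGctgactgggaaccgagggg
Xrcc3: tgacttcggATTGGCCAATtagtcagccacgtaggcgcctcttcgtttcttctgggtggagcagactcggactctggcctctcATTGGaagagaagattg

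Of the 35 genes, 26 had a promoter in the RefSeq table, read from 250 bases before to 50 after the start. The E2F letters stood in the promoters of 7 of the 26, or 26.9%, against 1.80% of all 27025 genes in the table, 3.11% of genes with an adjusted p in LPS against CON, and 4.86% of those that fell in the authors' deposited table. The 7 were Bard1, Brca2, Fancg, Msh6 and Rad51c, which fell in the authors' deposited table, Msh3, which rose there, and Rmi1, which did not pass. Among the 26, a match was thus found in 5 of 20 genes that fell and in 2 of 6 that did not, counted on the authors' deposited table. CCAAT stood in a promoter of 57.7% of the 26 genes, against 41.1% of all genes and 46.6% of those that fell in the authors' deposited table. By the same calls, CCAAT was found in 11 of the 20 genes that fell and in 4 of the 6 that did not. The letters TTTGAA or TTTAAA (CHR, a cell-cycle element) stood in 2 of the 26, Bard1 and Eme1, or 7.69%, against 30.6% of all genes, 24.0% of genes with an adjusted p and 25.5% of those that fell in the authors' deposited table. The median GC content of the promoters was 60.0% for the 26 genes, 52.7% for all promoters in the table and 60.3% for those of genes that fell in the authors' deposited table. No E2F match in these promoters overlapped an NF-Y match, and a match describes the sequence only, since no binding was measured here.

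In the GENCODE annotation of the same build, several of the 35 genes start head to head with another gene within 1000 bases. Of the 9 pairs whose repair gene fell in LPS against CON, the neighbour rose in 5, fell in 1 and did not pass in 3, in the authors' deposited table. Over all genes with an adjusted p there, 28.1% rose and 27.2% fell, 55.4% in either direction. The median log2 fold change of those 9 neighbours was 0.56 in the authors' deposited table, with a range from -0.60 to 1.06. The starts of Fancd2 and Emc3, a subunit of a membrane protein insertase, are 30 bases apart, and Emc3 stood at 31.7, 44.6 and 39.5 FPKM in CON, LPS and ProNa. Emc3 rose by a log2 fold change of 0.76 in the authors' deposited table (adjusted p = 3.7e-23), beside -6.89 for Fancd2. Nbr1, an autophagy receptor 194 bases from Brca1, rose by 0.86, Dctn5, a dynactin subunit 56 bases from Palb2, by 0.53, and Pomgnt1, a glycosyltransferase gene 150 bases from Rad54l, by 0.56 in the authors' deposited table. Npat, a histone gene regulator next to Atm, fell by 0.60 on the log2 scale in the authors' deposited table.

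**Figure D2:**
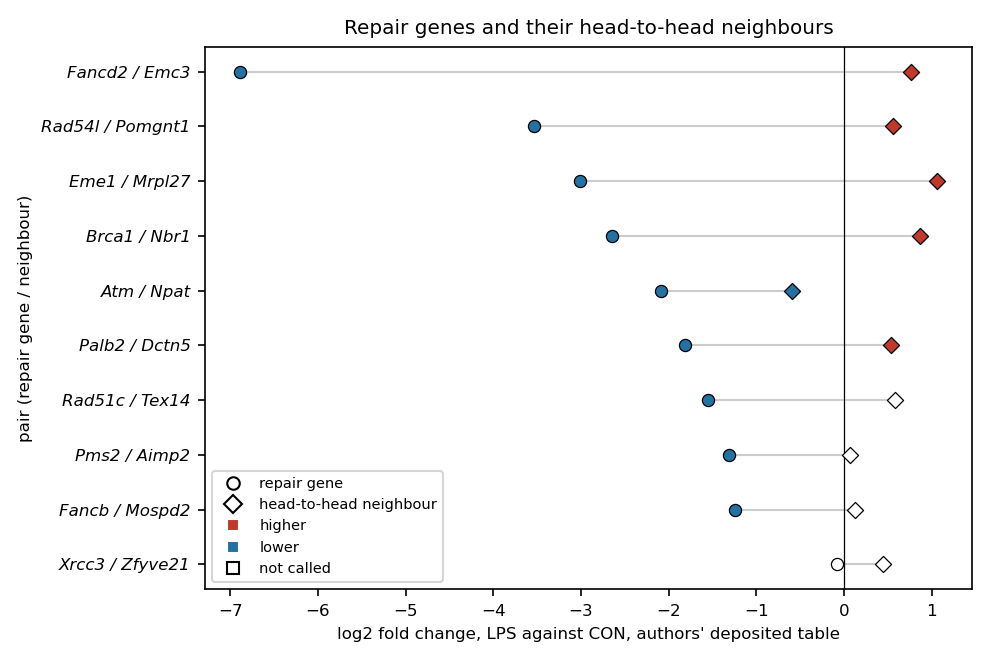
Log2 fold changes for LPS against CON from the authors' deposited table, with a circle for each repair gene that did not rise and a diamond for its head-to-head neighbour, coloured where the adjusted p was under 0.05. Among the 9 upper pairs, in which the repair gene fell, 5 neighbours rose and 1 fell, where 28.1% of all genes rose and 27.2% fell. Neither Xrcc3 nor its neighbour Zfyve21 passed in the lowest pair.

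The 4 recombination mediators had a median log2 fold change of -0.95 in the authors' deposited table, against -4.12 for the BRCA group. Rad51c stood at 4.03, 1.17 and 0.887 FPKM and fell by 1.55 on the log2 scale in LPS against CON in the authors' deposited table (adjusted p = 4.5e-10). Xrcc2 stood at 2.99, 1.13 and 0.720 FPKM and Rad51d at 9.80, 4.64 and 4.07. Xrcc2 and Rad51d had log2 fold changes of -1.13 and -0.76 in the authors' deposited table. Xrcc3 stood at 10.3, 8.06 and 6.46 FPKM, and its log2 fold change was -0.08 in the authors' deposited table (adjusted p = 0.658). Its transcripts differed among themselves: the 2422-base one went from 2.77 to 0.197 FPKM, whereas a 2300-base one stood at 2.90 and 3.61 and an assembled 1591-base one at 3.76 and 4.19. Xrcc3 overlaps Klc1 on the opposite strand.

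Both RAD54 genes, motor proteins that act on DNA during strand exchange, fell in the authors' deposited table. Rad54l stood at 16.5 FPKM in CON, against 0.853 in LPS and 0.547 in ProNa, with a log2 fold change of -3.53 in the authors' deposited table (adjusted p = 6.7e-136). What was left of Rad54l in LPS came for 90.6% from 1 transcript of 4571 bases, which held 27.7% in CON. Rad54b stood at 10.6, 3.38 and 2.49 FPKM, with a log2 fold change of -1.06 in the authors' deposited table. Its 2870-base reference transcript went from 3.44 to 0.380 FPKM, while an assembled one of 2723 bases went from 0.913 to 1.96, and the gene shares bases with Fsbp on the same strand.

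**Figure D3:**
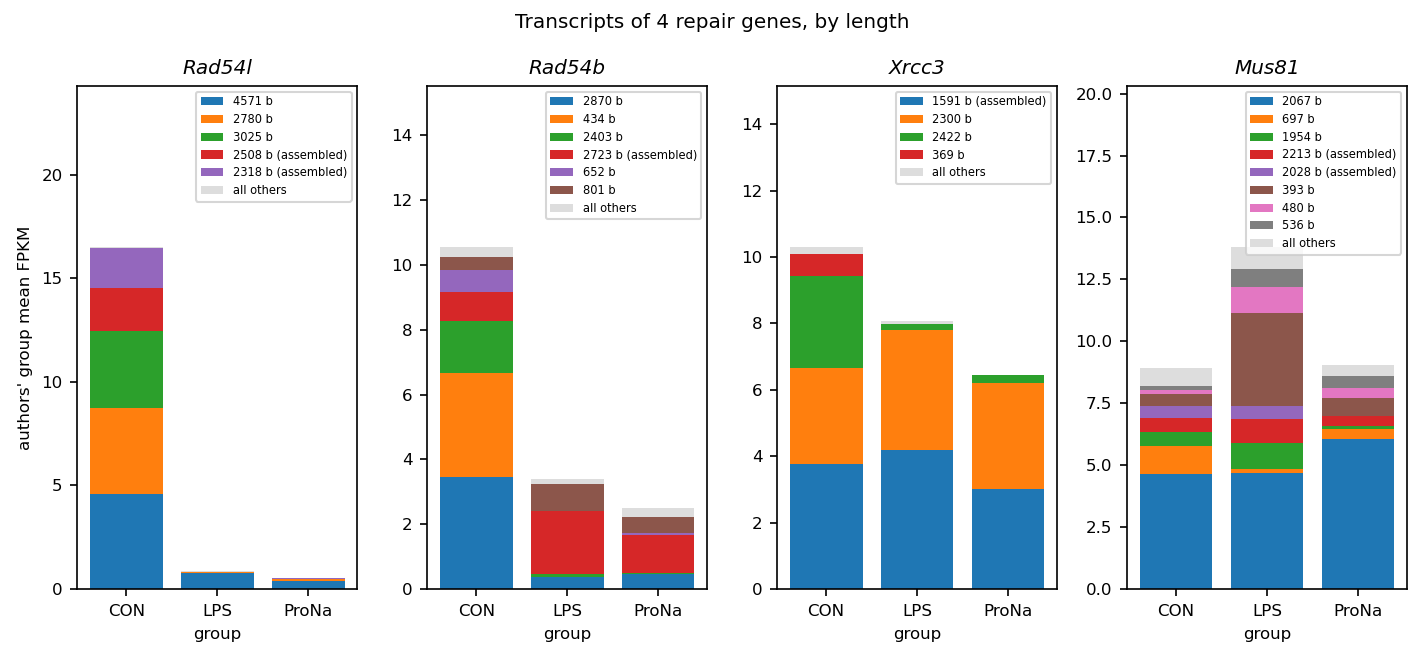
The authors' group mean FPKM of the transcripts of Rad54l, Rad54b, Xrcc3 and Mus81, stacked to the gene's sum, with colours for transcripts named by length and grey for the rest. The Xrcc3 segment of 2422 bases goes from 2.77 to 0.197 FPKM between CON and LPS, and the Mus81 segment of 393 bases from 0.483 to 3.72.

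Transcript levels carry no test here. Among the 18 genes with 2 or more transcripts at 1 FPKM or more in a group, the transcript with the highest FPKM in CON was not the highest in LPS for 7, namely Fance, Brca2, Palb2, Rad54b, Exo1, Pms2 and Chek1. Chek1 is an example: its 3397-base transcript went from 5.16 to 0.307 FPKM and a 2142-base one from 1.78 to 1.13. Msh6 was the reverse, with 96.5% of its CON level and 95.5% of its LPS level from the same 4251-base transcript.

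In the complex that untangles joined DNA the helicase gene fell and Rmi1 did not pass in LPS against CON in the authors' deposited table. Blm, the helicase, stood at 9.33, 1.45 and 0.690 FPKM in CON, LPS and ProNa and fell by 3.05 on the log2 scale in the authors' deposited table (adjusted p = 1.2e-98). Rmi1, which holds the complex together, stood at 11.02, 10.5 and 7.84 FPKM, and its log2 fold change was 0.23 in the authors' deposited table (adjusted p = 0.0558). Rmi2, its partner, was at 0.0700, 0.0167 and 0.0600 FPKM, near 0 in every group, and did not pass (log2 fold change -1.54, adjusted p = 0.324 in the authors' deposited table).

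The nuclease formed by MUS81 and EME1 was split in the same comparison. Eme1, the partner subunit, stood at 4.57, 0.487 and 0.697 FPKM, with a log2 fold change of -3.01 in the authors' deposited table (adjusted p = 6.3e-21). Mus81, the cutting subunit, stood at 8.92, 13.8 and 9.06 FPKM and rose by a log2 fold change of 0.50 in the authors' deposited table (adjusted p = 0.00218), a call lost when fold changes were put on the FPKM scale (0.23, adjusted p = 0.187). The leading Mus81 transcript of 2067 bases stood at 4.66 and 4.69 FPKM in CON and LPS, and a 393-base one at 0.483 and 3.72.

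The 2 partners in mismatch recognition went opposite ways. Msh6, which recognises single mismatches, stood at 27.6, 4.41 and 4.18 FPKM and had the highest level of the 35 genes in CON. It fell by 2.37 on the log2 scale in the authors' deposited table (adjusted p = 5.5e-174). Msh3, which recognises small loops, stood at 11.4, 23.0 and 18.3 FPKM, the highest level of the 35 in LPS and in ProNa. It rose by a log2 fold change of 1.19 in the authors' deposited table (adjusted p = 1.0e-30), and its 5 transcripts at 1 FPKM or more were each higher in LPS than in CON. Exo1, the exonuclease that removes the strand with the error, went from 7.67 to 0.303 and 0.223 FPKM, a log2 fold change of -5.46 in the authors' deposited table (adjusted p = 1.0e-49). Pms2, the endonuclease subunit, stood at 6.83, 3.05 and 1.60 FPKM, with a log2 fold change of -1.32 in the authors' deposited table.

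The 3 genes that sense and trim broken ends had the median nearest to 0 of any role in LPS against CON, -0.06 in the authors' deposited table. Rad50, the arm of the sensor complex, stood at 16.1, 7.44 and 5.35 FPKM and fell by 0.89 on the log2 scale in the authors' deposited table (adjusted p = 2.0e-16). Nbn, another subunit of that complex, stood at 10.2, 12.6 and 9.33 FPKM and rose by a log2 fold change of 0.57 in the authors' deposited table (adjusted p = 5.4e-07). Its 2533-base transcript stood at 8.34 and 8.55 FPKM in CON and LPS, and an assembled 2409-base one at 1.86 and 4.06. Rbbp8, which starts the trimming, stood at 12.8, 8.74 and 7.997 FPKM, and its log2 fold change was -0.06 in the authors' deposited table (adjusted p = 0.686). On the FPKM scale Rbbp8 and Xrcc3 passed as lower, at -0.32 (adjusted p = 0.0046) and -0.35 (adjusted p = 0.0264).

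The 3 damage kinases fell 3.66-fold to 4.89-fold in the authors' deposited table. Atm, which answers to double-strand breaks, stood at 16.0, 3.31 and 3.05 FPKM, and 96.6% of its CON level came from 1 assembled transcript of 12154 bases. Atr, which answers to single-stranded DNA, stood at 8.27, 1.77 and 1.43 FPKM, and Chek1, its target kinase, at 10.4, 2.17 and 1.58. The log2 fold changes of Chek1, Atm and Atr were -2.29, -2.09 and -1.87 in the authors' deposited table.

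The comparison of ProNa with LPS asked whether ProNa before LPS was linked to another level of these genes. Of the 31 genes with an adjusted p in the authors' deposited table, 4 fell, 0 rose and 27 did not pass, where 30.6% of all 12732 genes passed, 14.1% lower and 16.5% higher. At an unadjusted DESeq2 p under 0.05 in the authors' deposited table, 8 of the 31 were lower and 0 higher, where 38.6% of all genes were under that p. The median log2 fold change of the 31 was -0.20 in the authors' deposited table, against -0.0024 over all those genes, with 11 above 0 and 20 below. Fancd2, Fanci, Exo1 and Rmi2 had no adjusted p in the authors' deposited table.

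The 4 that fell were Pms2, Nbn, Rmi1 and Rad50. Pms2 went from 3.05 FPKM in LPS to 1.60 in ProNa, a log2 fold change of -0.73 in the authors' deposited table (adjusted p = 0.00218). Its 2116-base transcript went from 1.02 to 0.150 FPKM and its 5482-base one from 0.607 to 0.467, and the gene shares 5794 bases of its span with Gm42421 and 934 with Rsph10b, both on the same strand. Nbn, Rmi1 and Rad50 had log2 fold changes of -0.30, -0.29 and -0.29 in the authors' deposited table, with adjusted p of 0.0272, 0.0272 and 0.0404. Of the 4, only Pms2 passed at an adjusted p under 0.01, and a 2-fold difference was reached by none of them, against 3.25% of all genes, in the authors' deposited table.

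None of the 5 BRCA group genes, the 4 recombination mediators, the 2 RAD54 genes, the 7 core complex genes or the 3 kinases passed in ProNa against LPS in the authors' deposited table. Among all 12732 genes with an adjusted p in that comparison, 30.6% passed, 14.1% lower and 16.5% higher. The log2 fold changes of the genes in those roles ran from -0.67 for Rad51c and Chek1 to 0.83 for Bard1 in the authors' deposited table. Bard1 had an adjusted p of 0.384. It stood at 0.0867 FPKM in LPS and 0.137 in ProNa, and Brip1 at 0.157 and 0.170. At such levels, not passing says little. The group means of Blm were 1.45 FPKM in LPS and 0.690 in ProNa, while its log2 fold change was -0.23 in the authors' deposited table (adjusted p = 0.570). On the FPKM scale 8 of the 31 passed, all lower, with Fanca (-0.47), Rad54l (-0.78), Msh3 (-0.35) and Chek1 (-0.80) added to the 4, while 10.7% of all genes were then higher and 25.7% lower.

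**Figure D4:**
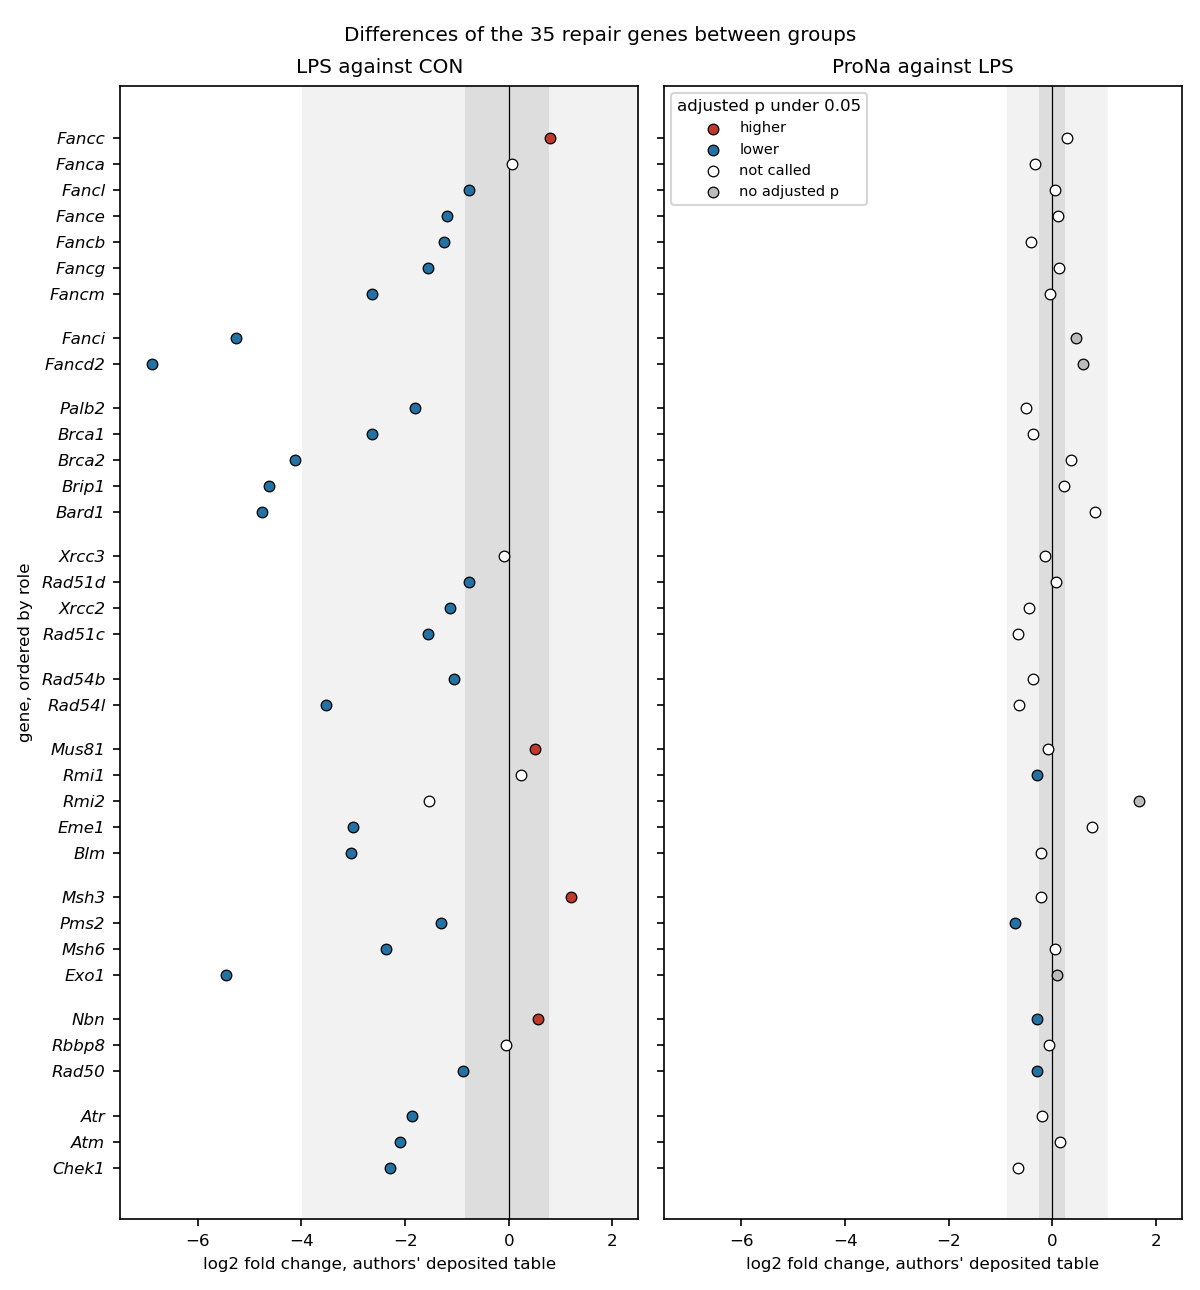
Log2 fold changes of the 35 genes in LPS against CON (left) and ProNa against LPS (right) from the authors' deposited table, blue for lower and red for higher at an adjusted p under 0.05, white for not passing and grey for no adjusted p. The dark and pale bands hold the middle 50% and 95% of all genes with an adjusted p: on the left 26 points are blue and 4 red, on the right 4 are blue and 0 red.

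ProNa was also set against CON, a comparison that shares its samples with the other 2. Of the 35 genes, 27 fell, 4 rose and 4 did not pass in the authors' deposited table, where 54.4% of all 18540 genes passed, 26.6% lower and 27.7% higher. The median log2 fold change of the 35 was -1.94 in the authors' deposited table, against -0.03 over all those genes. Fancd2 was lowest at -6.30 (adjusted p = 4.1e-56) and Exo1 next at -5.39 (adjusted p = 1.4e-46) in the authors' deposited table. Fancc and Msh3 rose by log2 fold changes of 1.08 and 0.98 in the authors' deposited table, with adjusted p of 1.8e-06 and 8.7e-25. Mus81 and Nbn rose by 0.42 and 0.28 in the authors' deposited table (adjusted p = 0.0122 and 0.0288), but on the FPKM scale Mus81 was at 0.02 (adjusted p = 0.929) and Nbn turned to -0.13 (adjusted p = 0.362). Fanca, at 9.26 FPKM in CON and 9.11 in ProNa, passed as lower by a log2 fold change of -0.28 in the authors' deposited table (adjusted p = 0.0467).

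Other repair genes were taken from 7 lists of 134 genes in all, 80 of them in the Fanconi, recombination, mismatch repair and checkpoint pathways and 54 in end joining and excision repair. In LPS against CON 54 of the 80 fell and 9 rose in the authors' deposited table, and 64 fell and 4 rose on the FPKM scale. Of the 54, 25 fell and 14 rose in the authors' deposited table, and 32 fell and 10 rose on the FPKM scale. Over all genes 27.2% fell and 28.1% rose in the authors' deposited table, and 35.8% and 21.4% on the FPKM scale. Of 16 other Fanconi genes 8 fell and 1 rose, and of 31 other recombination genes 18 fell and 6 rose, with medians of -0.50 and -0.47 in the authors' deposited table. Uhrf1, Ube2t and Usp1 fell by 5.03, 2.12 and 0.88 on the log2 scale in the authors' deposited table; UHRF1 reads DNA methylation at replication forks, UBE2T is the conjugating enzyme that serves FANCL, and USP1 removes the ubiquitin again. Rad51ap1, Fignl1 and Nucks1 fell by 4.62, 3.41 and 1.44 on the log2 scale in the authors' deposited table.

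In the mismatch repair list, which also holds the polymerase and clamp genes that fill the gap, 16 of 17 genes fell and 0 rose in the authors' deposited table, with a median of -1.42. Lig1, the ligase that seals the strand, went from 29.5 to 3.35 FPKM. Of 16 other checkpoint genes 12 fell and 2 rose, with a median of -1.15 in the authors' deposited table, and Clspn, which brings CHK1 to ATR, went from 12.9 to 0.127 FPKM. Of 14 end joining genes 6 fell and 3 rose, and of 21 base excision repair genes 13 fell and 4 rose in the authors' deposited table. Among the end joining genes Rif1 and Xrcc6 fell by 1.94 and 1.12 on the log2 scale in the authors' deposited table. Polm, an end joining polymerase, rose by a log2 fold change of 1.82, and Neil3, a glycosylase, fell by 5.73 in the authors' deposited table. In nucleotide excision repair 6 of 19 genes were lower and 7 higher in the authors' deposited table, shares near the 27.2% and 28.1% of all genes, and the median of 0.07 became -0.20 on the FPKM scale.

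In ProNa against LPS 20 of the 132 list genes with an adjusted p fell and 12 rose in the authors' deposited table, 15.2% lower against 14.1% of all genes and 9.09% higher against 16.5%. On the FPKM scale 41 fell and 7 rose, 31.1% lower against 25.7% of all genes. Timeless, a fork protection gene, went from 13.8 FPKM in CON to 4.33 in LPS and 8.59 in ProNa, and rose in ProNa against LPS by a log2 fold change of 1.21 in the authors' deposited table (adjusted p = 2.2e-19). Recql4, a helicase, went the other way, from 4.88 to 2.22 FPKM, with a log2 fold change of -1.02 in the authors' deposited table (adjusted p = 1.3e-09). Prkdc, the kinase of end joining, went from 12.2 to 6.32 FPKM, with a log2 fold change of -0.73 in the authors' deposited table (adjusted p = 3.6e-08).

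Markers of dividing cells stood beside the repair genes in LPS against CON. Of 20 such markers 19 fell and Cdt1 rose in the authors' deposited table, with a median of -4.60. Mki67 went from 46.8 to 0.680 FPKM and Top2a from 82.4 to 0.733. Of 18 E2F, RB and MuvB genes, which govern cell-cycle transcription, 12 fell and 3 rose in the authors' deposited table, although on the FPKM scale 15 fell and 0 rose. The part of cell division in the levels of the 35 repair genes was not tested. In ProNa against LPS 3 of the 20 markers rose (Mcm5, Mcm6 and Cdk1), 1 fell (Cdt1) and 16 did not pass in the authors' deposited table. Over all genes 16.5% rose and 14.1% fell in that comparison, so the share of markers that rose was near that of all genes. Mcm6 stood at 54.9, 1.22 and 2.66 FPKM in CON, LPS and ProNa.

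**Figure D5:**
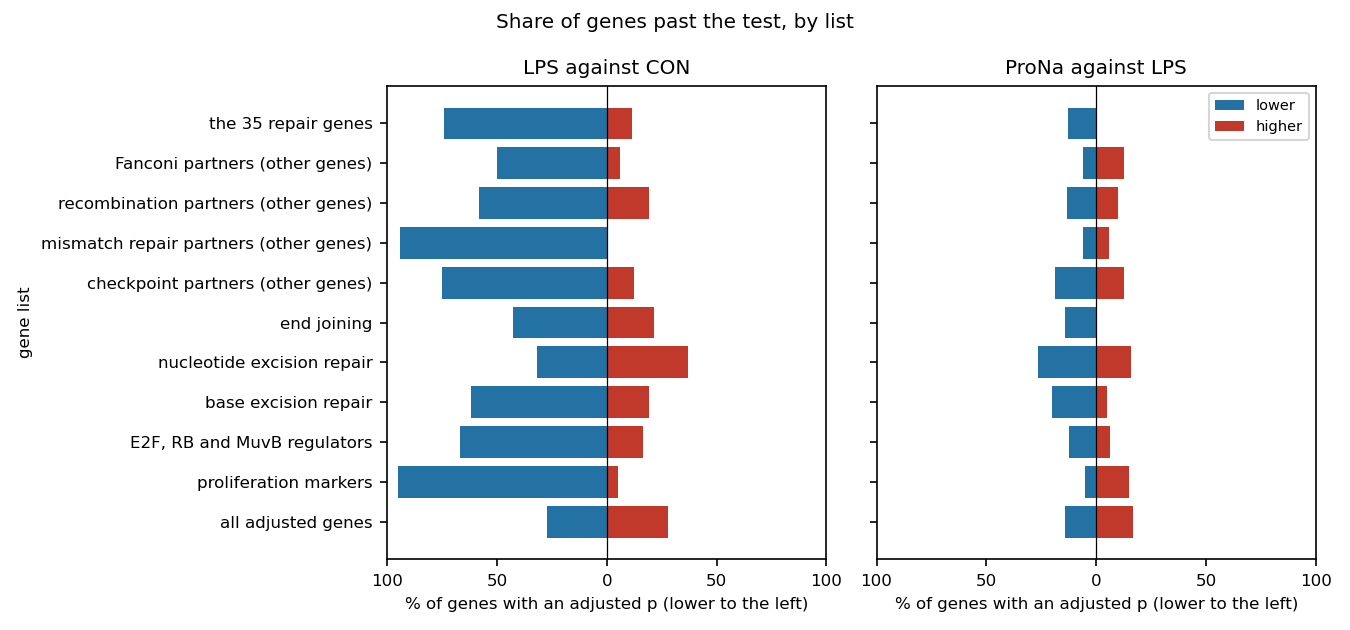
The share of genes with an adjusted p under 0.05 in each list, lower to the left and higher to the right, in LPS against CON and ProNa against LPS, from the authors' deposited table. On the left panel the 35 repair genes stand at 74.3% lower, against 27.2% of all genes, and on the right panel at 12.9% lower, against 14.1%.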

How the data were processed

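The submitters sequenced RNA of 9 samples, which were grouped by title into CON, LPS and ProNa with 3 each. The tools were HISAT2, StringTie and DESeq2 and the build GRCm39, per the submitters' processing notes; versions, annotation and strand handling are not given in the sources used here. The authors deposited FPKM per transcript, per the file headers, of which the 3 group mean columns were used. A further 9 columns of single libraries match no label and were not used, so the planned limma check, the replicate block and leaving out replicates could not be run, and no SD, standard error or depth can be given. The authors' deposited table holds log2 fold changes, p-values and adjusted p-values of DESeq2 for 3 comparisons, per the file headers. A p-value here sets the difference between groups against the spread among samples of one title, and that spread may be only technical. Adjusting the p-values by Benjamini-Hochberg gave the deposited adjusted p-values over 17795, 12732 and 18540 genes; genes listed at exactly 1 were treated as having no adjusted p, and the threshold was 0.05. Transcript lengths are as deposited by the authors.

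FPKM were summed by gene. The FPKM scale means that the median gap between the deposited log2 fold changes and the log2 FPKM ratios (0.26 in LPS against CON, 0.13 in ProNa against LPS, 0.40 in ProNa against CON) was subtracted, and the shifted value tested with the error implied by the deposited p; on it 21.4% of all genes rose and 35.8% fell in LPS against CON, and 18.3% and 39.1% in ProNa against CON. The code of this step was run on simulated data with a known shift common to all genes. Such a run cannot show that a common shift fits the real genes. The 35 genes and all lists were chosen with earlier results of these data known. Named in full were the largest rise and fall of each role in LPS against CON, genes not passing there, genes passing in ProNa against LPS, and, from other lists, genes among the 3 smallest adjusted p; the head-to-head neighbours, Cdk1, Wee1 and E2f8 were named after their values were seen. Of 173 listed symbols, Lin54 was not matched. Promoters are RefSeq's on GRCm38.p6 (26 of 35 genes matched, 29 promoters), and neighbours come from GENCODE on GRCm38; as the files use GRCm39, these served only for sequence and gene order. Python 3.11.15, pandas 2.3.3, numpy 2.4.6, scipy 1.17.1, statsmodels 0.14.6 and matplotlib 3.10.9 were used.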

Additional observations from a re-analysis of the deposited data

How the results depend on the processing

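No paired analysis was possible because the columns of single libraries match no label; leaving out each replicate was not run for the same reason. In LPS against CON and ProNa against CON the count of repair genes passing stayed between 24 and 32 under every alternative run, with medians from -2.34 to -1.26. In ProNa against LPS the 4 genes became 1 at an adjusted p under 0.01, 0 with at least 2-fold, 0 after Holm and 1 after Benjamini-Yekutieli adjustment (8 of 31 had an unadjusted DESeq2 p under 0.05, as did 38.6% of all genes), and 8 on the FPKM scale, where the shift itself lowers every value. The median of -0.20 there became -0.33 on the FPKM scale, -0.30 and -0.36 as an FPKM ratio with pseudocounts of 0.5 and 0.1, and -0.37 with none, an alternative chosen after seeing the data. The 32 other repair genes passing in ProNa against LPS became 16 at an adjusted p under 0.01. Nbn in ProNa against CON turned from 0.28 to -0.13 on the FPKM scale, -0.12 as an FPKM ratio and -0.11 with its highest transcript alone; the cause was not tested. Depth is unknown, so levels under 1 FPKM, such as Rmi2 in every group, limit what can be read from them.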

Other observations

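Ercc1, the partner of a crosslink nuclease that is also listed with nucleotide excision repair, stood at 1.31 FPKM in CON, against 111 in LPS and 86.7 in ProNa. It rose in LPS against CON by a log2 fold change of 6.57 in the authors' deposited table (adjusted p = 6.7e-243). Its leading transcript of 1375 bases stood at 0.640, 64.0 and 46.7 FPKM, and a second of 1179 bases at 0.413, 24.6 and 19.7 FPKM.

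Wee1, a kinase that holds cells before mitosis, had a log2 fold change of -3.32 for LPS against CON in the authors' deposited table (adjusted p = 2.6e-61), while its summed FPKM went from 12.5 in CON to 19.8 in LPS and 33.6 in ProNa. Its 3419-base transcript stood at 7.70, 0.573 and 0.5 FPKM, and an assembled one of 203 bases at 4.76, 19.3 and 33.1 FPKM.

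E2f8, a repressor of the E2F family, stood at 10.0 FPKM in CON and 0.0633 in both LPS and ProNa, with a log2 fold change of -7.09 for LPS against CON in the authors' deposited table (adjusted p = 2.1e-58).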
